A study of Mus musculus with 18 samples.

Results

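The genes described here mark the cells that line blood and lymphatic vessels, together with the ligands that act on those cells. They were chosen by name: 35 genes were listed, all 35 were found on the array (3 of them, Esam, Lyve1 and Pdpn, under the older names Esam1, Xlkd1 and Gp38), and they were followed among 28919 genes in all. The messenger RNA of whole mammary tissue or tumour, snap frozen, was measured in females of the inbred mouse strain FVB/N. There were 2 normal mammary glands, 2 RNA pools of NIC tumours with 5 tumours in equal amounts in each, and 5 single tumours with the genotype ErbB2 knock-in (KI), and every RNA was hybridised on 2 arrays with the dyes exchanged against a commercial mouse reference RNA. The labels do not spell out NIC, name no promoter or age, and do not say whether any of the samples share an animal or a litter. ErbB2 is a growth factor receptor with kinase activity, related to the EGF receptor, and the series title places the tumours in a study of β-catenin in ErbB2-driven mammary tumours. A pool averages its tumours, so the spread between the NIC pools is not the spread between single NIC tumours.

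Blood vessels are lined by endothelial cells that are held together by junction proteins such as VE-cadherin and claudin-5 and that grow, sprout or rest according to the vascular endothelial growth factor (VEGF) receptors and the angiopoietin receptor Tie2. Lymphatic vessels carry their own set of markers, with the transcription factor Prox1 at its head, and respond to VEGF-C through its receptor Flt4. In the mammary gland both kinds of vessel run through the fat pad around the epithelial ducts, and tumours draw on the blood vessels for their supply.

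Levels are log2 ratios of sample over reference RNA, each the mean of the 2 arrays of an RNA sample, so a level can be compared between samples for 1 gene but not between genes. For the normal and NIC arrays the direction of the ratio was inferred by analogy with the KI arrays, as given under the processing. Both channels lay above background on all 10 KI arrays for 34 of the 35 members, the exception being Sele, and no member was saturated. Members were represented by the brightest of their probes on the KI arrays, 15 of them had several probes, and for 8 of these the NIC minus normal values of the probes were over 1 log2 unit apart. The arrays of normal gland were more widely spread over all spots (interquartile range 0.761 to 0.970) than those of NIC pools (0.514 to 0.559) and KI tumours (0.422 to 0.562). KI tumour 2 was the lowest of the 5 KI tumours for 26 of the 35 members, beside 26.4% of all genes. Its median level over the members was the lowest, at 0.31, but near that of tumour 4, at 0.40. Tumours 1, 3 and 5 had medians of 0.75 to 1.15. For the KI tumours, the counts below both glands and above both NIC pools, and the median differences, are given with and without tumour 2. Since the tissue was measured in bulk, fewer endothelial cells and less RNA per endothelial cell cannot be told apart.

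**Figure D1:**
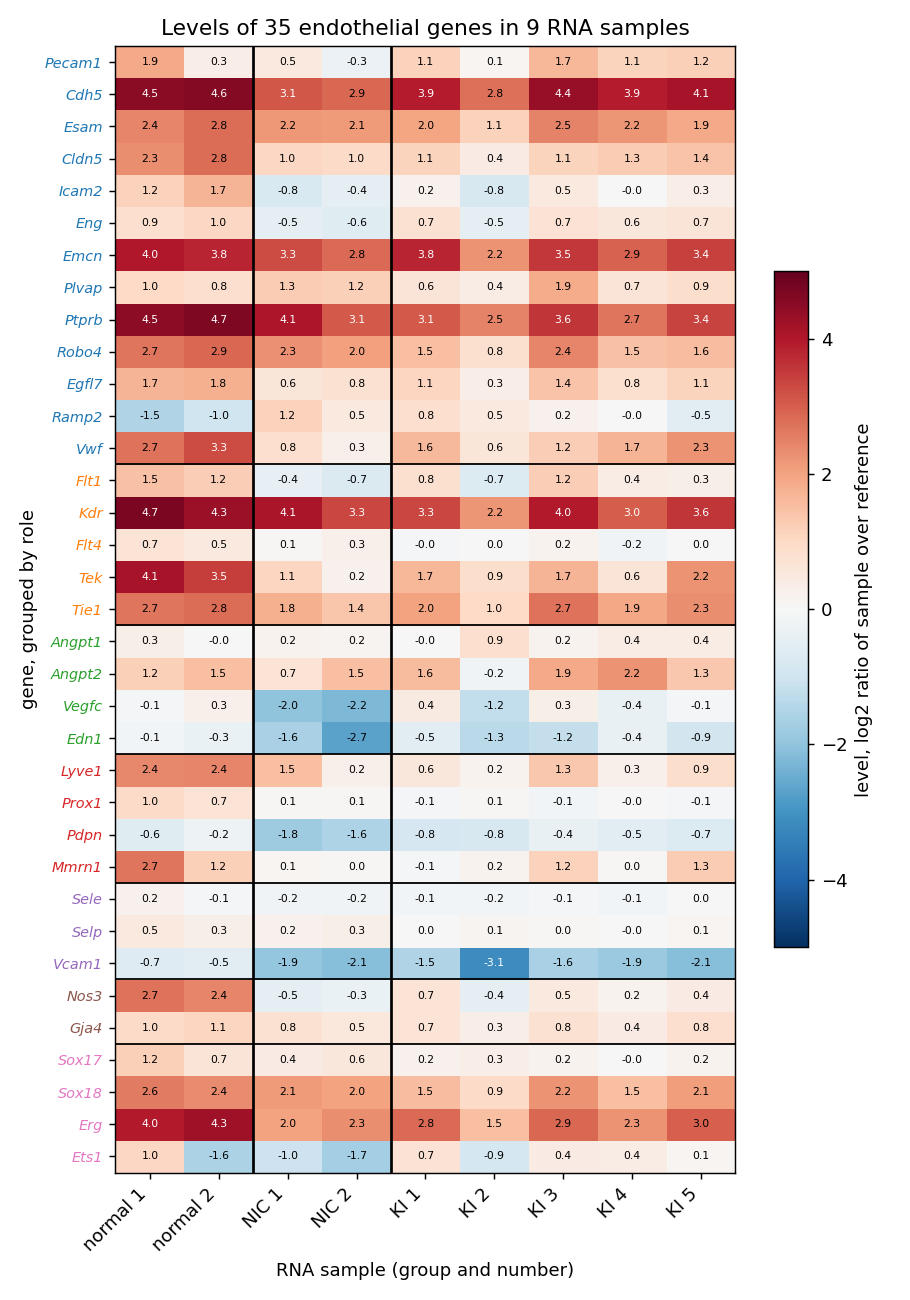
Levels of the 35 endothelial genes (rows, grouped by role in the colours of the gene names, black lines between roles) in the 9 RNA samples (columns, black lines between groups), as log2 ratio of sample over reference, printed in each cell. Cdh5, Kdr, Ptprb, Emcn and Erg are above the reference in every sample, and the members are mostly redder in the 2 normal glands than in the NIC pools and in KI tumour 2.

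The NIC pools were set against the normal glands, the tissue of the same strain without a tumour. In the NIC pools 15 of the 35 members fell and 1, Ramp2, rose, while 19 did not pass the test (limma on 2 and 2 RNA samples, adjusted p under 0.05 over all 28919 genes). Of all genes 9.81% were called lower and 8.81% higher. The median difference over the members was −1.06 on the log2 scale, beside −0.06 over all genes, and 32 of the 35 differences were below 0. Among roles, 6 of 13 junction and surface genes, 3 of 5 receptor kinases, 1 of 4 ligands, 2 of 4 lymphatic genes, 1 of 3 leukocyte adhesion molecules, 1 of 2 flow-regulated or arterial genes and 1 of 4 transcription factors fell. Without normal gland 1 the members called lower numbered 13 (7.23% of all genes), and without normal gland 2 they numbered 11 (7.07%). Without either NIC pool limma called no gene of the array (an unadjusted p under 0.05 was found for 22 members and 22.1% of all genes without NIC pool 1, for 18 and 24.2% without NIC pool 2, and for 24 and 39.1% with all samples). When every array was scaled to the same spread, which shrinks the wide columns of normal gland most, 10 members were called lower and 3 higher (11.6% and 9.42% of all genes), the median difference was −0.48, and the differences of Cdh5, Esam, Emcn, Ptprb, Robo4, Kdr, Angpt2 and Sox18 turned to above 0.

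Nos3, Eng, Vwf and Vegfc were the 4 members called in each alternative analysis that kept all 4 RNA samples and tested them. Tek lost its call when either normal gland was left out, as did Tie1 and Ramp2. Prox1 lost it without normal gland 1, and Egfl7, Vwf and Pdpn without normal gland 2.

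**Figure D2:**
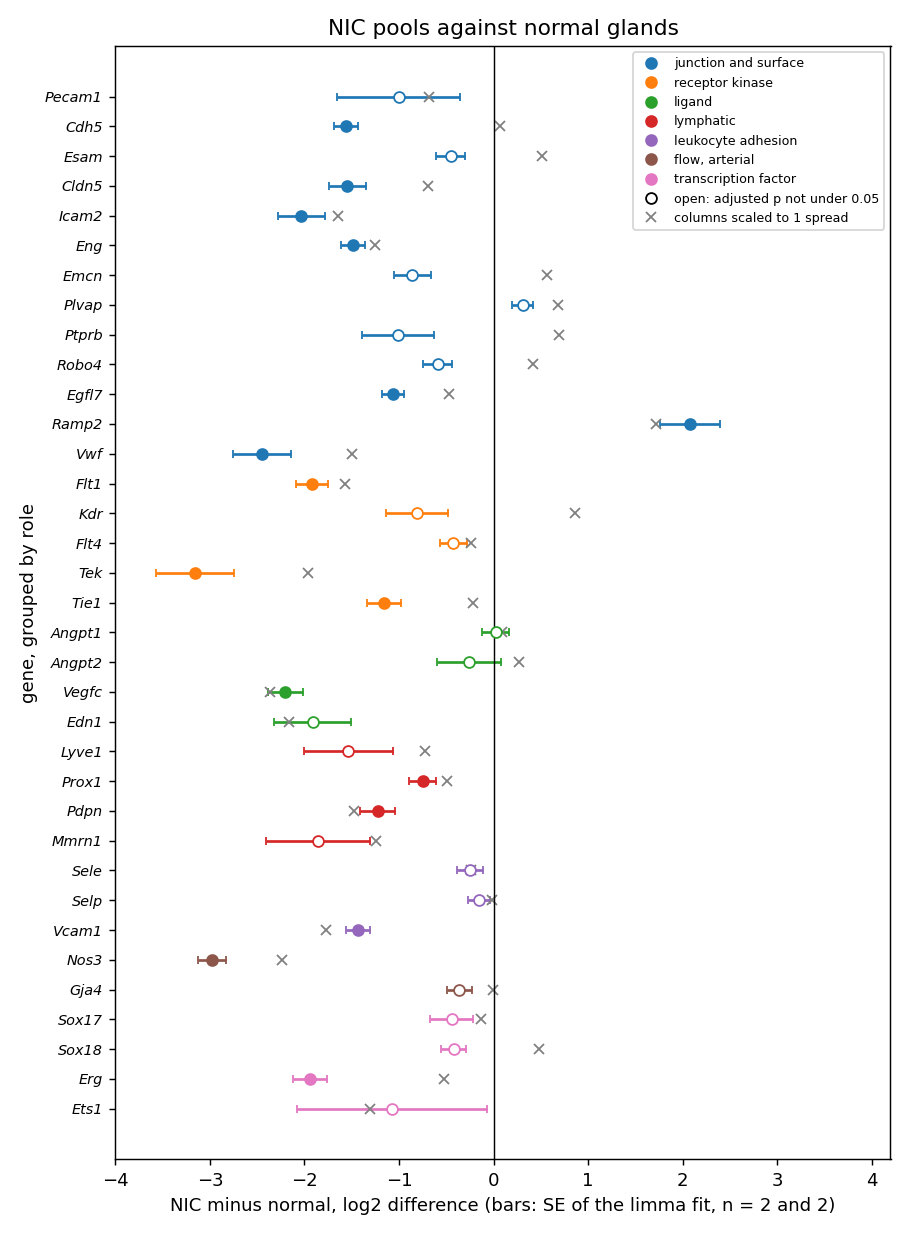
NIC minus normal difference (horizontal axis, log2) of each of the 35 members (rows, coloured by role), with the SE of the limma fit as bars. Filled points passed the test and open points did not, and grey crosses give the difference with all arrays scaled to 1 spread. Tek and Nos3 lie farthest to the left, and Ramp2 is the filled point to the right of 0.

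Among the genes of endothelial junctions and surface, the largest fall in NIC was that of Vwf, the von Willebrand factor that endothelial cells store and release to catch platelets. Its level was 2.71 and 3.27 in the normal glands, 0.82 and 0.26 in the NIC pools, and 1.61, 0.60, 1.23, 1.71 and 2.25 in KI tumours 1 to 5. All 7 tumour samples lay below both glands, and NIC pools lay 5.46-fold lower (difference −2.45 ± 0.31 SE, limma adjusted p = 0.0244). A probe named by the RefSeq transcript differed by −3.46, and the dimmest probe stayed at the level of the reference and differed by −0.0015. Icam2, a surface ligand of leukocyte integrins at endothelial junctions, was 1.17 and 1.69 in the glands and −0.77 and −0.44 in the pools. Its fall was 4.09-fold (−2.03 ± 0.25, limma adjusted p = 0.0229), and KI tumours ranged from −0.80 in tumour 2 to 0.48 in tumour 3, below both glands.

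Cdh5, encoding VE-cadherin, the adhesion molecule of endothelial junctions, stood at 4.53 and 4.57 in the glands, 3.10 and 2.88 in the pools, and 3.94, 2.75, 4.37, 3.91 and 4.12 in the KI tumours. It fell by 1.56 ± 0.13 in NIC (2.95-fold, limma adjusted p = 0.0131), but its other probe differed by −0.56, and with the arrays scaled to 1 spread the difference was 0.066 and not called. Cldn5, the tight junction claudin of endothelium, was 2.32 and 2.78 in the glands against 1.03 and 0.97 in the pools (−1.55 ± 0.20, limma adjusted p = 0.0242). In the KI tumours it lay between 0.41 and 1.43, again below both glands. Eng, the co-receptor endoglin that binds ligands of the TGF-β family, was 0.85 and 1.02 in the glands and −0.48 and −0.61 in the pools (−1.49 ± 0.12, limma adjusted p = 0.0135). In KI tumours 1, 3, 4 and 5 its level was 0.59 to 0.75, close to the glands, and in tumour 2 it was −0.49, as in the pools. Egfl7, a protein secreted by endothelium into the vessel matrix, was 1.71 and 1.79 against 0.62 and 0.76 (−1.06 ± 0.11, limma adjusted p = 0.019), with the KI tumours between 0.32 and 1.41.

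Pecam1, the platelet-endothelial adhesion molecule most used to stain vessels, was not called. Its normal glands were 1.88 and 0.33 and so differed from each other by more than the mean difference of −1.0 ± 0.65 (limma adjusted p = 0.331). The low value of gland 2 averages 1.34 on its Cy5 array and −0.68 on its Cy3 array, and over the members gland 2 had the widest gap between its dyes (median 0.70, beside 0.26 over the 9 RNA samples). With Cy5-labelled samples alone Pecam1 differed by −1.59 (limma adjusted p = 0.0506), and with Cy3-labelled samples by −0.41 (0.806). On the mean of both dyes the KI tumours, at 0.11 to 1.66, lay across both other groups. Emcn, a sialomucin of veins and capillaries, was 4.0 and 3.82 in the glands and 3.26 and 2.84 in the pools, a difference of −0.86 ± 0.19 that missed the threshold (limma adjusted p = 0.0612). Robo4, an endothelial guidance receptor, differed by −0.59 ± 0.15, Ptprb, the phosphatase that acts on Tie2 and VE-cadherin, by −1.01 ± 0.38, and Esam, an adhesion molecule of tight junctions, by −0.45 ± 0.16. None of the 3 passed the limma test (adjusted p = 0.0777, 0.15 and 0.126). Plvap, which forms the diaphragms of fenestrated capillaries, was not lower in the pools: 0.99 and 0.84 in the glands, 1.26 and 1.19 in the pools, a difference of 0.31 ± 0.11 (limma adjusted p = 0.138). With the arrays scaled to 1 spread it was called higher in NIC, by 0.68. KI tumours ran from 0.39 in tumour 2 to 1.87 in tumour 3 for Plvap.

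Ramp2, a partner protein of the adrenomedullin receptor in endothelium, gave opposite results on its 2 probes. The brightest probe, named by a cDNA clone, was −1.49 and −1.01 in the glands, 1.16 and 0.49 in the pools, with KI tumours from −0.51 to 0.82 (NIC minus normal 2.08 ± 0.32, limma adjusted p = 0.0325). The probe named by the RefSeq transcript was 3.56 and 3.78 in the glands, 1.86 and 1.76 in the pools, and 2.51, 1.76, 3.22, 2.48 and 2.93 in the KI tumours. On that probe NIC was lower by 1.86 and every tumour sample lay below both glands, so the only member called higher turned into a member called lower. With accession-named probes throughout, 16 members were called lower and 0 higher (9.71% and 8.99% of all genes).

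The 5 receptor kinases among the members were Tek and Tie1 of the angiopoietin arm and the VEGF receptors Flt1, Kdr and Flt4. Tek, the Tie2 receptor for angiopoietins, had the largest fall of the 35 members in NIC, 8.93-fold (−3.16 ± 0.41, limma adjusted p = 0.0252). Its level was 4.14 and 3.46 in the glands, 1.06 and 0.22 in the pools, and 1.65, 0.86, 1.69, 0.63 and 2.24 in the KI tumours, so that each of the 7 tumour samples was below both glands. Tie1, its co-receptor, was 2.67 and 2.79 against 1.77 and 1.38 (−1.16 ± 0.18, limma adjusted p = 0.0328), and the KI tumours ranged from 1.01 in tumour 2 to 2.73 in tumour 3, which reached the range of the glands.

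Flt1, the VEGF receptor 1 that binds VEGF-A tightly and limits its action, was 1.47 and 1.22 in the glands, −0.42 and −0.73 in the pools, and 0.82, −0.69, 1.24, 0.36 and 0.28 in the KI tumours. It fell 3.78-fold in NIC (−1.92 ± 0.17, limma adjusted p = 0.0152), and 2 of its other probes differed by −2.02 and −0.81. The remaining probe, named by a separate transcript record, moved the other way: 0.68 and 0.69 in the glands, 0.99 and 1.08 in the pools, and 2.52, 0.34, 2.54, 2.37 and 1.88 in the KI tumours. Kdr, the main signalling VEGF receptor of blood endothelium, was 4.71 and 4.31 in the glands, 4.07 and 3.33 in the pools, and 3.34, 2.21, 3.96, 3.01 and 3.57 in the KI tumours. Its NIC difference of −0.81 ± 0.32 was not called (limma adjusted p = 0.164), and it turned to 0.86 with the arrays scaled. Flt4, the VEGF-C receptor of lymphatic endothelium, stayed near the reference, at 0.69 and 0.48 in the glands, 0.06 and 0.26 in the pools and −0.18 to 0.16 in the KI tumours (NIC difference −0.43 ± 0.14, limma adjusted p = 0.118).

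The sequence before the start of each of the 5 receptor genes is shown because some were called (Flt1, Tek, Tie1) and others were not (Kdr, Flt4). Each is the 250 bases before the RefSeq start on build GRCm38.p6, read 5′ to 3′ on the gene's strand, with capitals for 2 short cores. The first core, bound by ETS factors such as Erg and Ets1, is AGGAAG. Read from the other strand it appears as CTTCCT. The second core, bound by SOX factors, is AACAAT. Its reverse complement is ATTGTT. Both strands were searched, and no match of 1 core overlapped a match of the other in the members' windows. The windows are, on GRCm38.p6, chr5:147726012-147726261 (minus strand) for Flt1, chr5:75978456-75978705 (minus) for Kdr, chr11:49609429-49609678 (plus) for Flt4, chr4:94739039-94739288 (plus) for Tek and chr4:118489850-118490099 (minus) for Tie1.
Flt1: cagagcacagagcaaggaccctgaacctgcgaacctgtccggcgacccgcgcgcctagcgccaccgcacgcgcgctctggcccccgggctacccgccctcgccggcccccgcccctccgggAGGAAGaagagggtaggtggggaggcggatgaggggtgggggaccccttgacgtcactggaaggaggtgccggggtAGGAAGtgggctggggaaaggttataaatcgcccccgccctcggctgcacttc
Kdr: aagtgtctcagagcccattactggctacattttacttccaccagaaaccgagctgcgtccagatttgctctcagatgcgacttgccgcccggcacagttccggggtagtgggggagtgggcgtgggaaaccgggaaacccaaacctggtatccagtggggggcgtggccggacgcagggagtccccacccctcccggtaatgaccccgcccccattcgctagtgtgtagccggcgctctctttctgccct
Flt4: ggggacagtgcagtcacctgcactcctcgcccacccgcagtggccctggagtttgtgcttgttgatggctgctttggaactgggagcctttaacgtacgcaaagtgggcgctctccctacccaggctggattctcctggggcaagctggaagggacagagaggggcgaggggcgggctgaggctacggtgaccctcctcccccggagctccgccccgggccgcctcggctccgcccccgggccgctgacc
Tek: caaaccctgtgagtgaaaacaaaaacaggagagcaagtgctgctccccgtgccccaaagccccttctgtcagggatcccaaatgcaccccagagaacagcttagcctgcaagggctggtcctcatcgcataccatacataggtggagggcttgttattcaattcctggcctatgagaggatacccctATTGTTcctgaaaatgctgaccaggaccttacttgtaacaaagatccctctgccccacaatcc
Tie1: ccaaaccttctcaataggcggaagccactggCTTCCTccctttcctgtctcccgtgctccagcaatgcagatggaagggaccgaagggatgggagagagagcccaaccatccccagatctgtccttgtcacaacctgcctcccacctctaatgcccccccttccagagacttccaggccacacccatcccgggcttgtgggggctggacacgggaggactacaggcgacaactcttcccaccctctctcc
Flt1 held 2 ETS cores, starting 129 and 53 bases before the start, Tie1 held 1 at 219 bases, Tek held no ETS core and 1 SOX core at 63 bases, and Kdr and Flt4 held neither. RefSeq's promoter set held an entry for 19 members, with 24 promoters in all. The ETS core was found in 10 of these 24 (41.7%), beside 29.5% of the 32851 promoters in the table, and the SOX core in 4 (16.7%), beside 9.42%. At least 1 ETS core was present for 5 of the 10 called members with an entry and for 4 of the 9 that were not called. A match to such a short core is a description of the letters, and no binding was measured. Pecam1, Cdh5, Esam, Icam2, Plvap, Ptprb, Ramp2, Vwf, Angpt1, Angpt2, Lyve1, Vcam1, Nos3, Sox17, Sox18 and Ets1 had no entry.

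Among the ligands, Vegfc, which drives the growth of lymphatic vessels through Flt4, stood out. It was −0.11 and 0.26 in the glands, −2.0 and −2.25 in the NIC pools, and 0.44, −1.23, 0.28, −0.38 and −0.10 in the KI tumours. NIC pools were 4.6-fold lower than glands (−2.20 ± 0.19, limma adjusted p = 0.0142), whereas all 5 KI tumours lay above both pools and 4 of them within 0.5 of the reference. Edn1, the vasoconstrictor endothelin-1, was −0.13 and −0.35 in the glands and −1.63 and −2.67 in the pools, a difference of −1.91 ± 0.41 just short of the threshold (limma adjusted p = 0.0554). KI tumours lay between the groups for Edn1, from −1.35 to −0.36. The angiopoietins were not called. Angpt2, made by sprouting endothelium, was 1.19 and 1.49 in the glands and 0.67 and 1.49 in the pools (−0.26 ± 0.34, limma adjusted p = 0.615), and it varied most of all members among KI tumours, at 1.59, −0.19, 1.90, 2.23 and 1.35. Angpt1, the ligand of Tie2 made by cells around vessels, differed by 0.02 ± 0.14 (limma adjusted p = 0.917).

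Of the 4 lymphatic genes Prox1 and Pdpn fell in the NIC pools. Prox1 is the transcription factor that sets lymphatic identity. On its brightest probe it was 0.96 and 0.67 in the glands and between −0.14 and 0.07 in all 7 tumour samples. Its NIC difference was −0.75 ± 0.14 (limma adjusted p = 0.0465), but the other 2 probes differed by 0.15 and 0.01. The dimmest Prox1 probe was 0.533 and 0.114 in the glands and 0.016, 1.881, 0.101, 0.663 and 1.499 in KI tumours 1 to 5. On that probe KI tumours 2, 4 and 5 lay above both glands, and tumours 1 and 3 below both. The remaining Prox1 probe lay between −0.163 and 0.143 in every sample. Pdpn, the membrane glycoprotein podoplanin, which fibroblasts and myoepithelial cells make besides lymphatic endothelium, was −0.62 and −0.25 in the glands, −1.77 and −1.55 in the pools, and −0.83, −0.81, −0.38, −0.52 and −0.67 in the KI tumours. It fell in NIC by 1.23 ± 0.18 (limma adjusted p = 0.0318), and its dimmer probe differed by −0.27. On the mean of both dyes all KI tumours lay above the pools. Both results depended on the dye. With Cy3-labelled samples alone Pdpn differed by −1.98 (limma adjusted p = 0.0357), and with Cy5-labelled samples by −0.47 (0.154). In Cy5, KI tumours 1 and 2 (−1.545 and −1.3683) lay below NIC pool 2 (−1.3676). Lyve1, the hyaluronan receptor of lymphatic capillaries, was 2.39 and 2.42 in the glands, 1.49 and 0.25 in the pools, and 0.56, 0.19, 1.35, 0.27 and 0.86 in the KI tumours. On this brightest probe of Lyve1 no tumour sample reached either gland. Yet the pools differed so much from each other that the difference of −1.54 ± 0.47 was not called (limma adjusted p = 0.104). A dimmer Lyve1 probe, whose reference channel was above background on only 3 KI arrays, differed by 0.05. There NIC pool 1 (0.97) and KI tumour 3 (0.57) lay above both glands (0.54 and 0.42). Mmrn1, the secreted protein multimerin-1, was 2.66 and 1.19 in the glands and 0.10 and 0.04 in the pools (−1.86 ± 0.55, limma adjusted p = 0.0997). KI tumours 3 and 5 had Mmrn1 at 1.15 and 1.25, and the other 3 lay between −0.06 and 0.19.

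Of the molecules that arrest leukocytes on vessel walls, Vcam1, the ligand of the α4 integrins, fell in NIC. It was −0.65 and −0.52 in the glands, −1.92 and −2.12 in the pools, and −1.52, −3.14, −1.64, −1.87 and −2.13 in the KI tumours (NIC difference −1.44 ± 0.13, limma adjusted p = 0.015; other probes −1.16 and −0.26). All tumour samples lay below both glands. The selectins Sele and Selp, which start leukocyte rolling, stayed within 0.5 of the reference in every sample and were not called (−0.25 ± 0.14 and −0.15 ± 0.12, limma adjusted p = 0.271 and 0.404).

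Nos3, the endothelial nitric oxide synthase, had the smallest adjusted p of the members. Its level was 2.73 and 2.44 in the glands, −0.45 and −0.34 in the NIC pools, and 0.69, −0.44, 0.49, 0.18 and 0.41 in the KI tumours. NIC pools were 7.89-fold lower (−2.98 ± 0.15, limma adjusted p = 0.00837), and the highest KI tumour was still well below the lower gland. Gja4, a gap junction connexin of arteries, was 0.97 and 1.06 in the glands and 0.77 and 0.54 in the pools, which was not called (−0.36 ± 0.13, limma adjusted p = 0.137).

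Among transcription factors, Erg, the ETS factor that maintains endothelial identity, was 3.96 and 4.25 in the glands, 2.02 and 2.31 in the pools, and 2.81, 1.5, 2.87, 2.26 and 3.0 in the KI tumours. It fell 3.84-fold in NIC (−1.94 ± 0.18, limma adjusted p = 0.0153) on a clone-named probe, while the dimmer RefSeq-named probe stayed near the reference and differed by −0.06. Sox18, a SOX factor of vessel development, was 2.61 and 2.37 against 2.12 and 2.02 and was not called (−0.42 ± 0.13, limma adjusted p = 0.109). Scaled to 1 spread, Sox18 was called in the other direction, at 0.48. Sox17, an arterial SOX factor, was not called on its brightest probe (−0.44 ± 0.23, limma adjusted p = 0.241), but of its other 3 probes 1, named by the same transcript, was 3.83 and 3.93 in the glands, 1.32 and 0.90 in the pools, and 0.75 to 1.88 in the KI tumours. The other 2 differed by −0.51 and −0.98. With the mean of all 4 Sox17 probes the difference was −1.18 and was called (limma adjusted p = 0.0124), as it was on the brightest probe with Cy5-labelled samples alone (−0.83, 0.0378). Ets1, an ETS factor also made by lymphocytes, was 1.02 in gland 1 and −1.59 in gland 2 on its brightest probe. In gland 2 it was −0.54 in Cy5 and −2.65 in Cy3. Its difference of −1.07 ± 1.01 was not called (limma adjusted p = 0.488). On other Ets1 probes the glands lay closer together, at −0.14 and −0.04 and at 0.88 and 0.64. Those probes differed by −0.56 and −1.17. With accession-named probes Ets1 was called lower, at −0.56 (limma adjusted p = 0.0412).

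**Figure D3:**
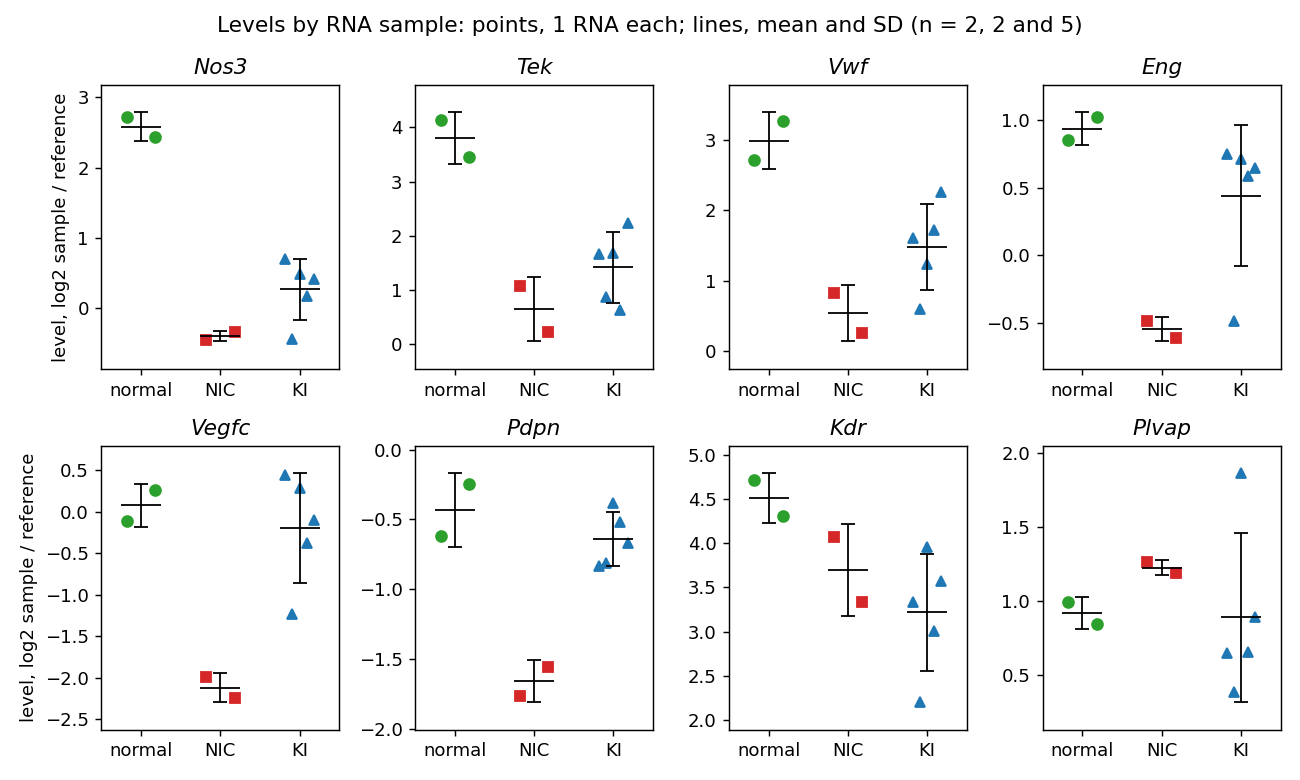
Levels of 8 members (panels; vertical axis, log2 ratio of sample over reference) in normal glands, NIC pools and KI tumours, with 1 point per RNA sample and the mean and SD as lines. Nos3, Tek, Vwf and Kdr are lower in every tumour sample than in both glands, with smaller mean differences for Kdr than for the others. On the mean of both dyes, Pdpn is lower in the NIC pools than in all KI tumours, and so are Vegfc and, apart from tumour 2, Eng. Plvap overlaps between KI tumours and both other groups.

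KI tumours were set against normal glands and NIC pools by levels and not by a test, since their arrays lie in a table and platform record of their own and table and KI group cannot be told apart. In KI tumours 22 of the 35 members were lower in all 5 tumours than in both glands, and 1, Ramp2 on its clone-named probe, was higher. Over all genes these shares were 30.4% and 23.7%. The median KI minus normal difference was −0.73 over the members, beside −0.03 over all genes. Scaled to 1 spread, 10 members were lower in all tumours (27.5% of all genes) and the median was −0.12. The largest mean differences were those of Tek (−2.39, or 5.23-fold) and Nos3 (−2.32, or 4.99-fold). These comparisons share the normal glands.

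Against the NIC pools, 5 members were higher in all 5 KI tumours (Vegfc, Edn1, Pdpn, Sele and Ets1) and 2 were lower (Selp and Sox17), where 16.4% and 14.8% of all genes were. That is near the share of all genes for the higher members and below it for the lower ones. These counts rest on the brightest probes. The other Sox17 probes had a higher mean in KI than in NIC (by 0.19, 0.35 and 0.04), and so had the other Selp probe (by 0.09). Sele was higher by a narrow gap, at −0.151 in KI tumour 2 against −0.171 in NIC pool 2. The KI mean lay between the NIC and normal means for 19 members, below both for 13 and above both for 3. The median KI minus NIC difference was 0.18 over the members and 0.00 over all genes, and it was −0.12 when the KI ratios were taken from the scanner files. Vegfc had the largest difference, 1.93 (3.8-fold), followed by Ets1 at 1.5 and Edn1 at 1.29. Robo4 (−0.61), Ptprb (−0.53), Kdr (−0.48) and Sox18 (−0.41) were among those with a lower mean in KI than in NIC.

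Tumour 2 set much of the spread among KI tumours. It was the lowest of the 5 for 26 of the 35 members, where it was lowest for 26.4% of all genes. Tumours 1, 3, 4 and 5 were lowest for 3, 1, 4 and 1 members, beside 20.4%, 15.7%, 24.0% and 13.7% of all genes. The SD among KI tumours had a median of 0.52 over the members and 0.15 over all genes. Tumour 2 lay 3.89-fold below the mean of the other 4 for Angpt2, 2.58-fold for Flt1, 2.55-fold for Vcam1 and 2.53-fold for Cdh5. It lay 2.45-fold below for Vegfc, 2.43-fold for Ets1 and 2.4-fold for Kdr. Not every member was low there: on their brightest probes Angpt1, Prox1, Selp and Sox17 were highest of the 5 in tumour 2. Angpt1 was 0.86 in it against −0.01 to 0.38 in the others, and Prox1 (0.07), Selp (0.12) and Sox17 (0.31) stayed near the reference. Another Sox17 probe had tumour 2 lowest, at 0.75 against 1.22 to 1.88. The other Selp probe did not have it highest (−0.12, beside 0.03 in tumour 3). For Prox1 the dimmest probe had tumour 2 highest (1.88) and the remaining probe did not.

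Without tumour 2 the median KI minus normal difference over the members was −0.60, beside −0.73 with it. The median KI minus NIC difference was 0.38, beside 0.18 with it. Leaving tumour 2 out did not change the number of members lower than both glands, 22 (32.6% of all genes). It raised the number above both NIC pools from 5 to 15 (21.5% of all genes), which added Pecam1, Cdh5, Cldn5, Icam2, Eng, Egfl7, Vwf, Flt1, Tie1 and Nos3. Tumour 2 was singled out for its low values in these same members, so such a rise was built in and nothing is drawn from it. The low values of tumour 2 were present in both dyes: its median member level was 0.20 with the tumour in Cy3 and 0.37 in Cy5, against 0.43 to 1.06 and 0.43 to 1.11 in the other tumours. Of its 2 arrays the Cy3 array was extracted from the image on the smaller of the 2 extraction days, which the Cy5 array was not. Fibroblast genes moved with the vessel genes there: 11 of 12 were lowest in tumour 2, with a median level of −1.38 in it and −0.38 to 0.51 in the other 4. Of 12 pericyte and smooth muscle genes 6 were lowest in it, of 12 leukocyte genes 7, of 12 adipocyte genes 5 and of 12 luminal epithelial genes 3. Their part in the result was not tested.

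**Figure D4:**
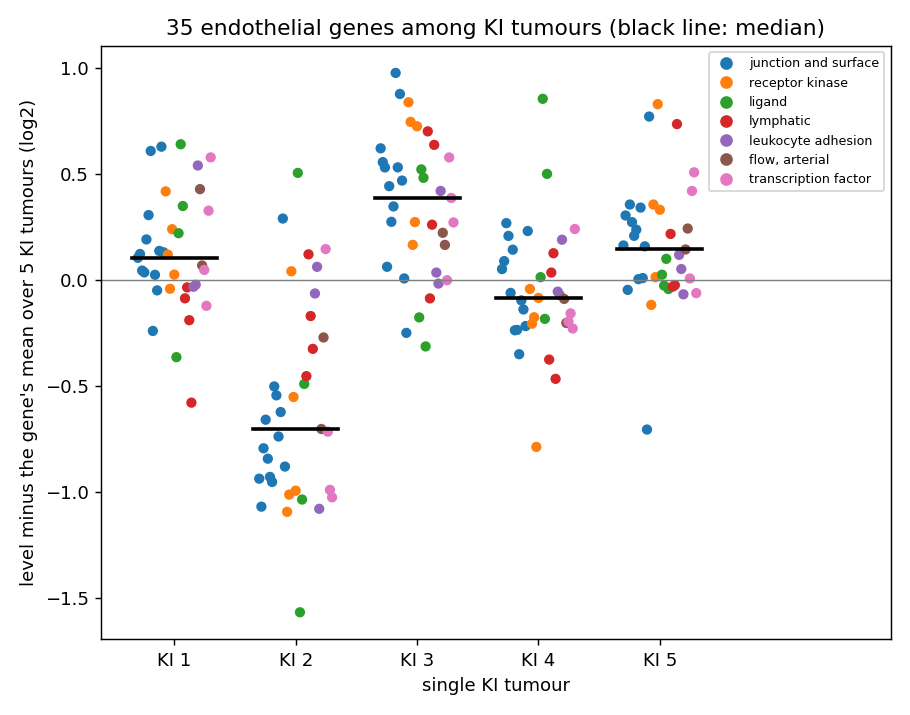
Level of each of the 35 members (points, coloured by role) in each KI tumour (horizontal axis), minus that gene's mean over the 5 KI tumours (vertical axis, log2), with the median as a black line. The median is −0.70 in tumour 2, where 29 members lie below their mean, and between −0.09 and 0.39 in the other tumours.

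A wider list of endothelial genes gave a mixed picture. Of 41 measured, 15 fell and 5 rose in NIC on their brightest probes (9.81% and 8.81% of all genes), with a median difference of −0.69. Klf2, among those that rose, differed by 2.70, but its RefSeq-named probe differed by −2.92. Among those that fell, another probe of Mcam differed by 0.62 and another of Nr2f2 by 0.26. Thbd, encoding thrombomodulin, which keeps vessels free of clots, fell from 0.96 and 0.73 in the glands to −3.74 and −3.85 in the pools (−4.63 ± 0.13, limma adjusted p = 0.00773), and its KI levels were −0.41, −3.58, −1.32, −3.05 and −1.66. Cav1, the caveolin of endothelium and fat cells, fell by 4.39 ± 0.22 (limma adjusted p = 0.00867; its other probe differed by −1.21). Hey1, a Notch target gene, rose from 1.52 and 1.53 to 4.77 and 4.81 (3.27 ± 0.09, limma adjusted p = 0.00773), whereas KI tumours ranged from −0.41 to 3.57. In tumour 2, 28 of the 41 were the lowest of the KI tumours.

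Of 22 growth factors and regulators of vessels, 8 fell and 4 rose in NIC, with a median difference of −0.74. Vegfd, the second ligand of Flt4, fell from 0.20 and 1.36 to −2.13 and −2.40 (−3.05 ± 0.45, limma adjusted p = 0.0311), and KI tumours had it at −1.54 to −1.17, so both lymphatic growth factor genes were lower in the NIC pools. Igf1, the insulin-like growth factor 1 gene, fell by 3.03 ± 0.09 (limma adjusted p = 0.00773; other probes −4.48 and −1.82), and Thbs1, an inhibitor of vessel growth, rose by 3.06 ± 0.19 (limma adjusted p = 0.0102; other probes 1.73, 0.84 and −0.19). The ligands of Flt1 and Kdr were picked out after their values were seen. Vegfa, their common ligand, was not called (−0.30 ± 0.30, limma adjusted p = 0.509), although its other 2 probes differed by 1.58 and 0.84. Pgf, which binds Flt1 alone, was −0.05 and −0.04 in the glands, 1.54 and 2.47 in the pools and 2.00, 0.20, 2.76, 2.01 and 0.98 in the KI tumours (NIC difference 2.05 ± 0.36, limma adjusted p = 0.0408). Vegfb, the other such ligand, fell by 0.92 ± 0.10 (limma adjusted p = 0.0197; other probe −1.24).

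The cell types around the vessels differed between glands and tumours as well. Adipocyte genes had a median level of 3.85 and 3.57 in the glands, 0.37 and 0.02 in the NIC pools and 0.01 to 0.59 in the KI tumours, and 9 of 12 fell in NIC, with Plin4, a coat protein of fat droplets, at −5.61 ± 0.34 (limma adjusted p = 0.01). Fibroblast genes had median levels of 1.61 and 1.73 in the glands, −0.42 and −1.72 in the pools and −1.38 to 0.51 in the KI tumours, with 6 of 12 called lower. Genes of luminal epithelium went the other way, from 0.78 and 0.45 in the glands to 3.11 and 3.30 in the pools and 2.60 to 3.29 in the KI tumours, with 9 of 12 called higher, Epcam by 3.87 ± 0.54 (limma adjusted p = 0.0278). The labelled tissues therefore carried their defining markers: fat genes were high in the glands and epithelial genes high in the tumours. Of 12 pericyte and smooth muscle genes 6 fell and 1, Anpep, rose. Myh11, the smooth muscle myosin, fell by 2.40 ± 0.24 (limma adjusted p = 0.0182). Acta2 fell by 2.03 ± 0.21 (limma adjusted p = 0.019), but its other probes differed by 2.44, 0.27, −3.08 and −0.03. Of 12 leukocyte genes 4 fell and 1 rose, and of 8 platelet genes, which matter here because platelets also carry Vwf, Selp and Pecam1, 1 fell (Ppbp, −0.85 ± 0.15, limma adjusted p = 0.0427). Log ratios to a reference have no zero, so none of these markers can be said to be absent. How far the makeup of the tissue accounts for the vessel genes was not tested.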

How the data were processed

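Messenger RNA was measured on Agilent 2-colour arrays in 9 RNA samples on 18 arrays, and the members and gene lists were chosen with earlier results of these data known. The deposited value tables hold log2 ratios, 1 column per array, with the normal and NIC arrays in 1 table and the KI arrays in another. The submitters' processing notes name RMA without a role, and no source used here gives the other steps behind them. Scanner files of the 10 KI arrays hold, for each spot, Cy5 and Cy3 intensities and their log10 ratio, red over green, made by Agilent's extraction software per the file headers.

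Scale and direction of the KI columns were found against those log10 ratios (size of Pearson r over spots 0.941 to 0.953, its sign turning with the dye), so that values are sample over reference. No scanner values of the normal and NIC arrays were used here. Their direction was taken by analogy and checked on 14 bright corner control spots, whose mean was negative with the sample in Cy5 and positive with it in Cy3 in both tables (−2.55 to −1.01 and 1.36 to 2.86). Where the labelling protocol and the dye field of a KI array disagreed, the dye field was followed. Column medians lay between −0.0099 and 0.026, and no centring was added. Spots were named from the KI files, taken to hold for both tables, and symbols were updated through a RefSeq gene table.

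The brightest probe on the KI arrays stood for a gene (41174 probes, 28919 genes), and dye partners were averaged to 1 value per RNA sample. NIC minus normal was tested in R 4.3.3 by limma 3.58.1 (two-sided moderated test of lmFit and eBayes, Benjamini-Hochberg over 28919 genes, adjusted p under 0.05), which was tested on simulated data. The labels do not say that RNA samples come from separate animals, and p-values therefore reflect only how these samples vary, which may be technical; their number limits the precision. All members are named, and of each further list at most the 3 called genes with the largest difference, besides Vegfa, Vegfb and Pgf, which were chosen after their values were seen. Klf2, Mcam and Nr2f2 are also named, for probes that went the other way. The scanner alternative used normexp (offset 50) and loess. Promoters came from RefSeq (GRCm38.p6).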

Additional observations from a re-analysis of the deposited data

Results flagged for a closer look

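In 2 of the 35 members tested for it, 1 KI tumour lay far from the other 4, by Dixon's ratio of the gap to the range (critical value 0.71 for 5 samples). Cdh5, encoding VE-cadherin, was 2.75 in KI tumour 2 and 3.91 to 4.37 in the other 4 (ratio 0.713). Eng, encoding endoglin, was −0.49 in KI tumour 2 and 0.59 to 0.75 in the other 4 (ratio 0.868). By chance about 1 in 20 such groups is marked. Both values come from the same tumour.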

How the results depend on the processing

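The count of 15 members lower in NIC was 6 with Cy3-labelled samples only (3.69% of all genes) and 6 among genes above the median signal (9.44%), where 17 members remained to be tested. The single member called higher became 0 with Cy5-labelled samples only, with the mean of all probes and with accession-named probes, and 3 with scaled columns. The median NIC minus normal difference of −1.06 was −0.79 with Cy3-labelled samples and −0.48 with scaled columns. Leaving out each RNA sample in turn gave 0 to 13 members lower, 0 higher, and medians from −1.35 to −0.74. In an arm of 1 sample that sample is assumed to vary like the others.

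For KI against normal, scaled columns gave a median of −0.12 and 10 members lower. The 1 member higher became 0 with Cy5-labelled samples, the mean of all probes or accession-named probes, and ran from 1 to 2 without each sample. For KI against NIC the median turned to −0.12 with scanner ratios. Members lower were 0 with the mean of all probes (15.2% of all genes), 7 with scanner ratios (16.9%) and 1 without the smaller extraction day (11.7%), and 2 to 7 without each sample. Members higher were 2 with Cy5-labelled samples, Vegfc and Ets1 (15.8% of all genes), and 5 to 15 without each sample. Among single genes Cdh5 turned to 0.066 and Sox18 to 0.48 with scaled columns, and Ramp2 to −1.86 with its accession-named probe. Apart from Ramp2, where another probe is used, the cause was not tested.

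Over all genes limma called 5385, and 2050 with Cy3-labelled samples, 3425 above the median signal, 10402 with all 9 RNA samples in the fit, 10000 with all arrays of the 4 RNA samples and RNA as a random block, and 0 without either NIC pool (6403 and 6988 at an unadjusted p under 0.05). Accession-named probes and the extraction day were alternatives chosen after seeing the data. No paired analysis was possible because the labels give the normal glands and the pools no shared replicate numbers. No probe of a member was saturated. Of the probes used, that of Sele was not above background on all 10 KI arrays, and the same held for unused probes of Ptprb, Vwf, Lyve1 and Mmrn1.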

Other observations

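Genes of lymph node venules and stroma, which hold a specialised vessel type of their own, were followed as a list of 10, of which 9 were measured. In the NIC pools 5 of them fell, and the median difference was −1.16. Glycam1, a mucin of high endothelial venules that mammary epithelium also secretes into milk, was 4.75 and 4.42 in the normal glands, −0.02 and −0.003 in the NIC pools, and 4.10, 4.42, 1.29, 0.78 and 4.49 in the KI tumours. KI tumours 1, 2 and 5 therefore had levels like those of the glands, and tumours 3 and 4 lay between the groups. Cxcl13, a chemokine of B cell follicles, fell from 4.61 and 3.80 to 0.90 and 0.20 (−3.65 ± 0.41 SE, limma adjusted p = 0.0203), and in the KI tumours it was 3.29, −0.06, 1.48, 0.09 and 0.81. Ltb, the lymphotoxin beta gene of lymphocytes, fell by 2.81 ± 0.33 (limma adjusted p = 0.0221). In tumour 2 Glycam1 was high and Cxcl13 low, so the list did not move together there, and 2 of its 9 genes were lowest in tumour 2.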
